A study of Macaca fascicularis with 16 samples.

Results

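The comparison sets blood mononuclear cells taken 1 day after the antibody NKTT320 against cells taken from the same animals before it. It holds 8 of the 16 libraries of the study, chosen by the time named in their titles: 4 pre-treatment libraries and 4 libraries of 1 day, from the Mauritian-origin cynomolgus macaques LG04, LG11, LG12 and LG15. All 4 animals received NKTT320, and untreated animals were not analysed here, so the antibody, the passage of a day and the earlier blood draws cannot be told apart. The sources used here give no age, sex or dose. Total RNA of unfractionated, snap-frozen cells was sequenced after removal of ribosomal RNA, and reads were counted on human gene models.

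NKTT320 is a monoclonal antibody that recognises the semi-invariant antigen receptor carried by iNKT cells (invariant natural killer T cells). These lymphocytes respond to lipids displayed on CD1d and can release many cytokines within hours of activation. They are rare in blood, so RNA of all mononuclear cells mostly reports on other T cells, B cells, NK cells and monocytes. Immediate-early genes such as FOS and the NR4A receptors are switched on within minutes of many stimuli, make short-lived transcripts and are followed by inhibitors, such as TNFAIP3 and NFKBIA, that damp the same signals. Small nucleolar RNAs (snoRNAs) guide chemical modification of ribosomal RNA in the nucleolus and are mostly cut from introns of other genes.

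Levels are given as CPM, counts scaled to library size with TMM factors, which correct for differences in RNA composition. T-cell markers were present throughout: all 17 genes of the T-cell receptor complex and its proximal signalling had counts in each of the 8 libraries, with summed levels of 1955 to 2326 CPM before and 1417 to 2358 CPM at 1 day. Red cells, platelets and granulocytes were present too. Globin genes summed to between 262.6 and 216400 CPM before NKTT320 and between 1419 and 259000 CPM at 1 day. Total counts were 4052676 to 7262622 in the pre-treatment libraries. At 1 day they were 1846011 in LG04, 7436071 in LG11, 1417467 in LG12 and 3156626 in LG15, so depth was lower at 1 day in 3 of 4 animals. In bulk samples, fewer cells of a type and less RNA per cell cannot be told apart.

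The library labelled LG04 at 1 day went against its animal label. Across 11545 genes its rank correlation was 0.971 with LG15 at 1 day and 0.959 with LG15 before treatment, and 0.882, 0.901 and 0.914 with the 3 other libraries of LG04. These genes are not independent replicates and the values are descriptive. Platelet genes summed to 34680 CPM in this library, and to 28740 and 10520 CPM in LG15 at 1 day and before treatment. In LG04 before treatment they summed to 457.7 CPM. The part of platelet RNA in the correlations was not tested. The 1 day libraries of LG11 and LG12 were nearest to libraries of their own animals, at up to 0.983 and 0.969, while LG15 at 1 day reached at most 0.946 with its own animal. UMODL1 lay between 45.1 and 57.5 CPM in the 3 other LG04 libraries, at 3.29 CPM in the library labelled LG04 at 1 day, and between 0.79 and 4.5 CPM in the 4 libraries of LG15. PPP1R9A lay at 0.562 CPM or below in the 3 other LG04 libraries, at 7.89 CPM in that library and between 8.69 and 17.0 CPM in LG15. Of 40 genes that were steady within each animal and separated LG04 from LG15, chosen after the values were seen, that library lay on the LG15 side for 35 and LG15 at 1 day for 31; for LG11 and LG12 at 1 day the numbers were 24 and 26. Of the 10 genes that best separated LG04 from LG15 with no demand for steadiness, that library lay on the LG15 side for 9. At 1 day LG11, LG12 and LG15 did so for 10, 9 and 9, so these 10 genes do not tell LG15 from LG11 and LG12. The library labelled LG04 at 1 day was kept under its label. Calls and the medians of several lists are given with and without it. Counts over 4 of 4 animals include it and may not stand for 4 separate animals.

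After 1 day, 26 of 11545 genes passed the test (0.225%), 6 of them higher (0.0520%) and 20 lower (0.173%). Those that fell included immediate-early genes, inhibitors of signalling and transcription factors, and 3 of the 6 that rose were snoRNAs. Genes were tested with edgeR's quasi-likelihood F test on all 16 libraries, with animal and time as terms and Benjamini-Hochberg adjustment at 0.05. All 26 moved the same way in 4 of 4 animals (over all genes tested, 9.83% were higher in 4 of 4 and 9.09% lower), and for 21 of them the 4 values of one time did not overlap the 4 of the other. Over all genes tested, 0.866% did not overlap and were higher and 2.07% did not overlap and were lower. The 26 were picked by a test on these same values, so these traits are no separate check of the calls. That they share 1 direction in LG11, LG12 and LG15 alone follows from the 4 of 4. Of all genes tested, 14.0% were higher in each of these animals and 13.3% lower in each. Without the library labelled LG04 at 1 day, 18 of 11910 genes passed (0.151%), and 16 of the 26 were among them. The 10 that did not pass then were ADNP2, C1orf124, CSRNP1, DUSP1, NFKBIA, ZBTB10 and ZNF394 among the lower genes, and SNORA54, TFEC and PLEKHO1 among the higher. DESeq2 called 400 genes (3.46%), all 26 included, of which 290 were higher (2.51%) and 110 lower (0.953%). With only the 8 libraries of the comparison edgeR called 1 gene. With LG04, LG11, LG12 or LG15 left out as a whole it called 1, 2, 1 and 67. Without the 4 shallowest libraries edgeR called 0 genes, with 1103 at an unadjusted p under 0.05. Those 4 include the 1 day libraries of LG12 and LG04, so in that fit only LG11 and LG15 had a 1 day library. With all libraries 1570 genes (13.6%) had such a p, 978 higher (8.47%) and 592 lower (5.13%).

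**Figure D1:**
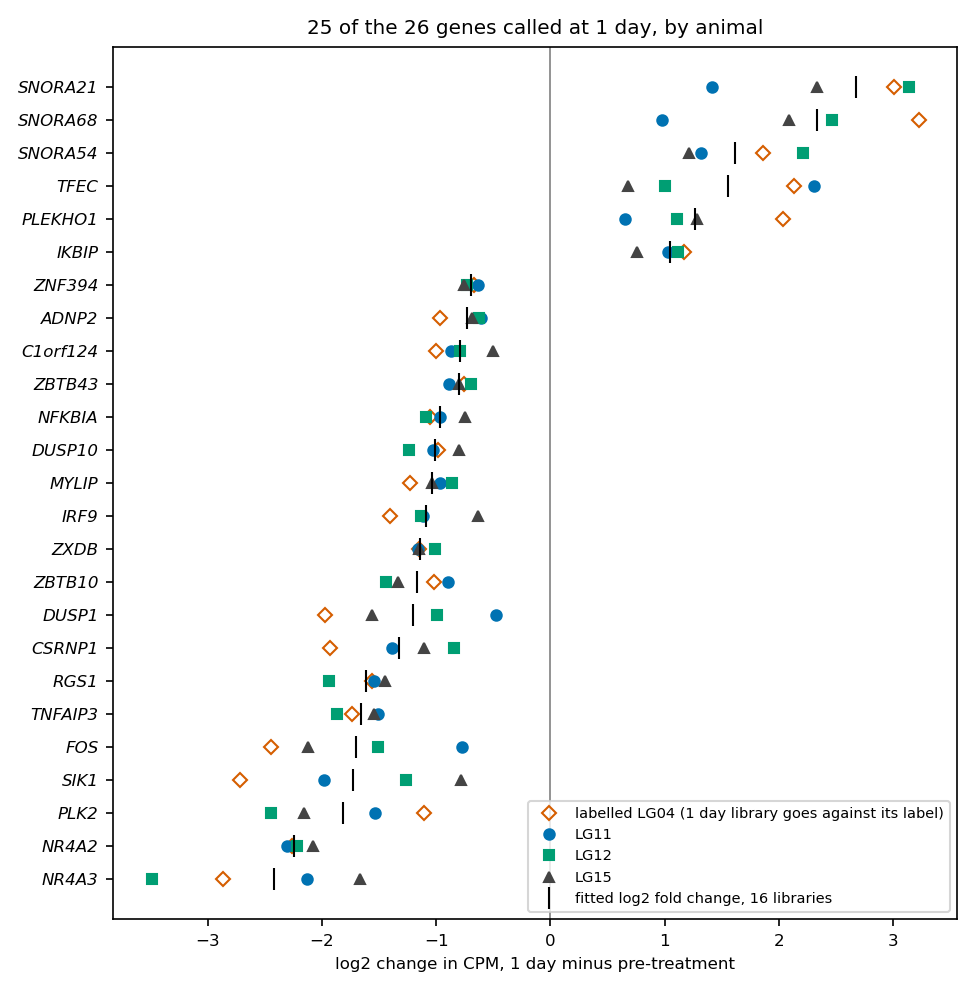
Change of 25 of the 26 called genes in each animal, as the log2 ratio of CPM at 1 day to CPM before treatment (horizontal axis); open diamonds are the pair with the library labelled LG04 at 1 day and vertical bars are the fitted values. All points of a gene lie on 1 side of 0, and those of NR4A2 lie between -2.30 and -2.08.

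The NR4A genes encode orphan nuclear receptors induced by antigen-receptor and other signals. NR4A2 had the smallest p of all genes. It stood at 182, 172, 183 and 128 CPM before treatment in LG04, LG11, LG12 and LG15, and at 37.5, 34.6, 38.9 and 30.0 CPM at 1 day. The highest value at 1 day was thus far below the lowest before, and the 4 animals fell by nearly the same ratio. The fitted change was log2 -2.24 ± 0.18 (SE), a 4.74-fold fall (edgeR adjusted p = 0.000219), and -2.36 without the library labelled LG04 at 1 day. NR4A3 went from 31.3, 27.1, 17.3 and 18.5 CPM to 3.94, 5.86, 1.16 and 5.53 CPM in the same order. These groups did not overlap either. The LG12 value at 1 day lay under the level that 3 counts make in that library (2.12 CPM before TMM scaling). NR4A3 fell by log2 2.42 ± 0.35 (SE, edgeR adjusted p = 0.0149). NR4A1 did not pass (log2 -0.83 ± 0.28, adjusted p = 0.192), and its levels in LG15 were 23.5 and 24.1 CPM.

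FOS and JUN proteins pair to form the AP-1 transcription factor. The gene lists used here were chosen with earlier results of these data known, so their counts and medians are descriptive. Of 9 AP-1 genes tested, 8 had a fitted change below 0. Their median was log2 -1.04 (-0.83 without the library labelled LG04 at 1 day) against 0.00 over all genes. Of the 9, 1 passed, against 0.225% of all genes tested. That gene was FOS, at 1033, 1007, 665 and 964 CPM before and 189, 589.6, 234 and 222 CPM at 1 day in LG04, LG11, LG12 and LG15. The groups did not overlap, and LG11 was the highest at 1 day. FOS fell by log2 1.70 ± 0.24 (SE, edgeR adjusted p = 0.0149), or 3.25-fold. JUN, FOSB and JUND missed the threshold, although their groups did not overlap. JUN stood at 314, 214, 142 and 110.1 CPM before and at 58.5, 51.3, 26.1 and 64.4 CPM at 1 day (log2 -2.0 ± 0.39, adjusted p = 0.063). JUNB differed between animals: it went from 378 to 41.4 CPM in the pair labelled LG04 and from 342 to 52.1 CPM in LG11, but from 77.0 to 149 CPM in LG15. Of the 5 EGR and IER genes tested, 0 passed in edgeR (2 at an unadjusted p under 0.05) and 1 in DESeq2, and the median was -0.79. The shares over all genes tested were 13.6% at such a p and 3.46% in DESeq2. EGR1, an immediate-early zinc-finger factor, gave log2 -0.49 ± 0.39, and IER5 gave -1.18 ± 0.24 (adjusted p = 0.07).

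**Figure D2:**
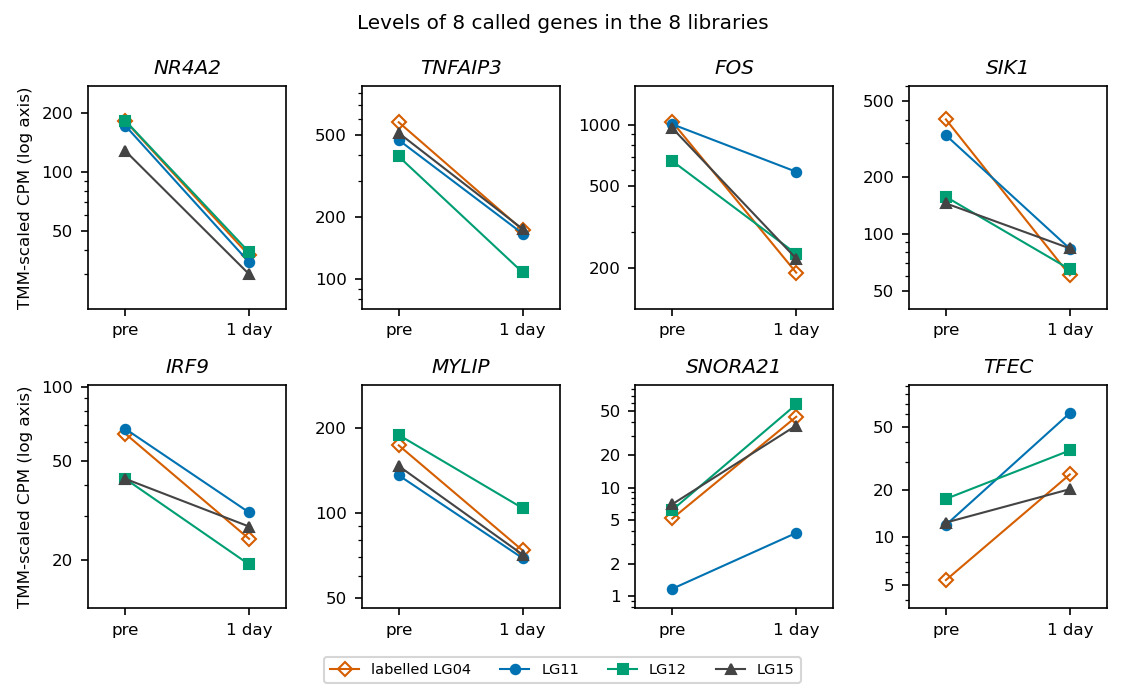
TMM-scaled CPM (log axis) of 8 called genes before treatment and 1 day after it; each line joins the 2 libraries of 1 animal, and the open diamonds are the pair labelled LG04. The lines of NR4A2 run almost parallel, from 128 to 183 CPM down to 30.0 to 38.9 CPM, while SNORA21 in LG11 lies far below the other animals at both times.

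Genes for kinases, phosphatases and a G-protein regulator that restrain or follow signalling were lower. Of 15 cAMP and CREB target genes tested, 3 fell, against 0.173% of all genes tested. A fitted change below 0 was found for 11 of the 15 (median log2 -0.37). SIK1, a salt-inducible kinase that restrains CREB coactivators, stood at 401, 331, 157 and 145 CPM before and 60.5, 83.5, 65.0 and 83.8 CPM at 1 day in LG04, LG11, LG12 and LG15. Animals that differed before treatment thus lay close together at 1 day. SIK1 fell by log2 1.72 ± 0.25 (SE, edgeR adjusted p = 0.0149). RGS1, which shortens chemokine-receptor signalling in lymphocytes, went from 195, 183, 251 and 206 CPM to 65.7, 62.6, 65.0 and 75.1 CPM, a 3.06-fold fall. PLK2, a stress-responsive polo-like kinase, went from 35.9, 39.5, 99.9 and 72 CPM to 16.4, 13.4, 18.0 and 15.8 CPM, a 3.52-fold fall. The 4 values at 1 day of each of these genes lay in a narrower band than those before. PLK3 and the phosphodiesterase gene PDE4B did not pass, at log2 -1.31 ± 0.31 and -0.86 ± 0.20, with groups that did not overlap.

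The dual-specificity phosphatases switch off MAP kinases. Of 9 tested, 2 fell, against 0.173% of all genes tested, and the median over the 9 was log2 -0.36. DUSP10, which acts on JNK and p38, stood at 45.9, 56.8, 54.0 and 36.8 CPM before and 23.0, 27.7, 22.6 and 20.9 CPM at 1 day, a 2.02-fold fall without overlap. DUSP1 went from 451, 813, 286 and 408 CPM to 114, 585, 143 and 138 CPM (log2 -1.20 ± 0.22, edgeR adjusted p = 0.0493). Here the groups overlapped, because LG11 at 1 day stood above 3 of the pre-treatment values, and the call was lost without the library labelled LG04 at 1 day (adjusted p = 0.0764). CSRNP1, a nuclear protein of the immediate-early kind, fell 2.51-fold, from 113 to 197 CPM before to 51.2 to 70.3 CPM at 1 day (adjusted p = 0.0592 without that library). Of 9 regulators of mRNA decay, 7 lay below 0 (median -0.53), 0 passed in edgeR (5 at an unadjusted p under 0.05) and 4 in DESeq2. Over all genes tested, 13.6% had such a p and DESeq2 called 3.46%. TOB1 (log2 -0.98 ± 0.21), BTG2 (-0.52 ± 0.12) and BTG3 (-0.53) had groups that did not overlap.

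All 10 tested genes that inhibit NF-kB, the transcription factor of many inflammatory genes, had a fitted change below 0 (median log2 -0.55, -0.42 without the library labelled LG04 at 1 day). Of the 10, 2 fell, against 0.173% of all genes tested. TNFAIP3 encodes the ubiquitin-editing enzyme A20. It stood at 579, 474, 395 and 513 CPM before and 174, 167, 108 and 175 CPM at 1 day in LG04, LG11, LG12 and LG15. The groups lay far apart and the ratio was similar in the 4 animals (log2 -1.66 ± 0.20, SE, edgeR adjusted p = 0.00969). NFKBIA, which encodes the inhibitor that holds NF-kB in the cytoplasm, went from 352, 315, 268 and 299 CPM to 169.5, 161, 126 and 178 CPM. Its 1.95-fold fall had an adjusted p of 0.0207, and of 0.0533 without that library. The 9 NF-kB subunits and kinases had a median of -0.06, with 0 calls in edgeR (1 at an unadjusted p under 0.05) and 1 in DESeq2. The shares over all genes tested were 13.6% at such a p and 3.46% in DESeq2. The median of the 10 inhibitors was -1.18 in the pair labelled LG04, -0.58 in LG11, -0.53 in LG12 and -0.03 in LG15.

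Type I interferon signals through a transcription factor complex that contains STAT2 and IRF9. IRF9 fell: it stood at 64.8, 67.8, 42.6 and 42.5 CPM before and at 24.3, 31.1, 19.1 and 27.3 CPM at 1 day in LG04, LG11, LG12 and LG15. The groups did not overlap (log2 -1.09 ± 0.16, SE, edgeR adjusted p = 0.0149). STAT2 did not pass (log2 -0.38 ± 0.11, adjusted p = 0.13). IRF1, at 283 to 436 CPM before and 187 to 280.4 CPM at 1 day, missed the threshold as well (adjusted p = 0.063). Of 28 interferon-stimulated genes tested, 0 passed in edgeR (12 at an unadjusted p under 0.05, all lower) and 5 in DESeq2, all lower. Over all genes tested, 5.13% were lower at such a p and DESeq2 called 0.953% lower. A fitted change below 0 was found for 23 of the 28, and 12 were lower at 1 day in 4 of 4 animals, against 9.09% of all genes tested. In LG11, LG12 and LG15 alone, 15 were lower in each, against 13.3%. The median of the 28 was log2 -0.50, or -0.42 without the library labelled LG04 at 1 day. It lay between -0.89 in LG11 and -0.26 in LG12. The antiviral GTPase gene MX1 stood at 45.6, 137, 42.0 and 32.7 CPM before and 30.9, 72, 33.1 and 15.4 CPM at 1 day (log2 -0.71 ± 0.22, adjusted p = 0.147). IFIT1 and CMPK2 went against the list, with fitted changes of log2 0.66 and 0.51.

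The other lower calls included a ubiquitin ligase, a DNA-repair protease and 5 zinc-finger proteins. MYLIP, a ligase that marks the LDL receptor for degradation, had the third smallest p of all genes. It stood at 173, 136, 189 and 146 CPM before and 73.6, 69.1, 104 and 71.1 CPM at 1 day, a 2.05-fold fall without overlap (log2 -1.04 ± 0.13, SE, edgeR adjusted p = 0.0123). ZXDB, a zinc-finger regulator of transcription, went from 75.1, 78.4, 90.2 and 93.2 CPM to 33.5, 34.9, 44.7 and 41.9 CPM, with a log2 change between -1.16 and -1.01 in each animal. ZBTB10, ZBTB43, ADNP2 and ZNF394 fell by log2 1.17, 0.80, 0.73 and 0.70, each without overlap. The zinc-finger families as a whole gave another picture: of 421 ZNF and ZBTB genes tested, ZNF394, ZBTB10 and ZBTB43 were the 3 called, the median was -0.03 and 226 lay below 0. C1orf124, the older symbol of the protease gene SPRTN, fell by log2 0.79 ± 0.13.

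Small nucleolar RNAs of both structural classes had higher summed levels at 1 day in 4 of 4 animals. The 106 genes of H/ACA box snoRNAs, which guide pseudouridylation, summed to 627.4, 602.3, 753.9 and 832.3 CPM before and 1870, 1195, 3027 and 2234 CPM at 1 day in LG04, LG11, LG12 and LG15. The 262 genes of C/D box snoRNAs, which guide ribose methylation, summed to 163.2, 141.3, 282.6 and 219.4 CPM before and 810.2, 247, 1842 and 852.3 CPM at 1 day. Their Cajal body relatives, the 24 scaRNA genes, summed to 1768, 1938, 1823 and 1549 CPM before and 2367, 1716, 4109 and 3461 CPM at 1 day, so they were lower in LG11. These sums need no filter on low counts.

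Of the 392 genes, 171 had no count in the 16 libraries and 72 were tested. The filter asks for 2.25 CPM in 4 libraries of any time, so a gene that is low before and high at 1 day can enter because it is higher. This holds for 16 of the 72, which passed only with the 1 day libraries, and each of the 16 had a fitted change above 0. Over all genes 274 of 11545 entered in that way, with a median of log2 0.62. Of the other 56 snoRNA and scaRNA genes, 52 lay above 0, with a median of 1.17. Of the 72, 68 had a fitted change above 0, with a median of log2 1.22 (1.29 without the library labelled LG04 at 1 day) against 0.00 over all genes. In 46 of the 72 the level was higher in 4 of 4 animals, against 9.83% of all genes tested. In LG11, LG12 and LG15 alone, 51 were higher in each, against 14.0%. In 16 the groups did not overlap and were higher, against 0.866%. The median was 1.21 over 44 H/ACA box snoRNAs, 1.20 over 14 C/D box snoRNAs and 1.28 over 14 scaRNAs. In edgeR 3 of the 72 rose and 0 fell, all 3 of the H/ACA class, and 52 had an unadjusted p under 0.05. The shares over all genes tested were 0.0520%, 0.173% and 13.6%. DESeq2 called 31 higher and 0 lower, against 2.51% and 0.953% of all genes tested. Because of the filter these counts and medians describe the tested genes only and are no measure of the 392. Reads of snoRNAs with near-identical copies are uncertain.

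SNORA54 was the most abundant of the 3, at 172, 171, 200.4 and 311 CPM before and 627, 427, 928 and 719.9 CPM at 1 day in LG04, LG11, LG12 and LG15. Its groups did not overlap (log2 1.62 ± 0.29, SE, edgeR adjusted p = 0.0465, and 0.0579 without the library labelled LG04 at 1 day). SNORA21 went from 5.2, 1.17, 6.22 and 7.03 CPM to 44.7, 3.83, 58.0 and 37.1 CPM, and SNORA68 from 4.69, 2.46, 4.08 and 9.44 CPM to 47.3, 5.26, 24.4 and 41.5 CPM. For these 2 the groups overlapped through LG11, which stayed low, while each animal was higher than its own start. The rises were log2 2.68 ± 0.40 for SNORA21 and 2.34 ± 0.35 for SNORA68 (edgeR adjusted p = 0.016 for both). The host genes of SNORA21 and SNORA54 did not pass. RPL23, in whose intron SNORA21 lies, gave log2 -0.17 ± 0.15, and NAP1L4, the host of SNORA54, -0.02 ± 0.11. Of 12 noncoding snoRNA host genes tested, such as GAS5 and SNHG1, 6 lay above 0 and 6 below (median -0.05). The 20 genes for proteins of snoRNA particles and the nucleolus had a median of -0.04 and 0 calls in edgeR and in DESeq2 (1 at an unadjusted p under 0.05). The gene of dyskerin, DKC1, which catalyses pseudouridylation in H/ACA particles, gave 0.16.

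Depth and animal moved with the snoRNA values. The median over the 72 genes was 1.37 in the pair labelled LG04, 1.47 in LG12 and 1.38 in LG15, whose 1 day libraries were shallower than their pre-treatment ones, and 0.62 in LG11, whose 2 libraries were of nearly equal depth. Over the 56 genes that passed the filter without the 1 day libraries, it was 1.29 in the pair labelled LG04, 1.38 in LG12, 1.38 in LG15 and 0.46 in LG11. The share of all counts taken by H/ACA box snoRNAs was 0.0588%, 0.0707%, 0.0957% and 0.0941% before and 0.154%, 0.134%, 0.368% and 0.179% at 1 day, so it was higher in LG11 too. For C/D box snoRNAs it was 0.0166% before and 0.0278% at 1 day in LG11, but scaRNAs went the other way there, from 0.227% to 0.193%. Other short nuclear RNAs were mixed. RPPH1, the RNA of ribonuclease P, stood at 4499, 4873, 1529 and 2332 CPM before and 13920, 1808, 18440 and 15150 CPM at 1 day. It was thus lower in LG11 and higher in the other libraries (log2 1.62 ± 0.68, adjusted p = 0.301). RMRP, a related RNA that processes ribosomal RNA precursors, gave -0.18 ± 0.25. RNU11, an RNA of the minor spliceosome, was between 0.822 and 1.48 CPM before and between 2.15 and 34.2 CPM at 1 day (log2 3.06 ± 0.57, adjusted p = 0.0532). The part of depth and RNA recovery in these values was not tested.

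**Figure D3:**
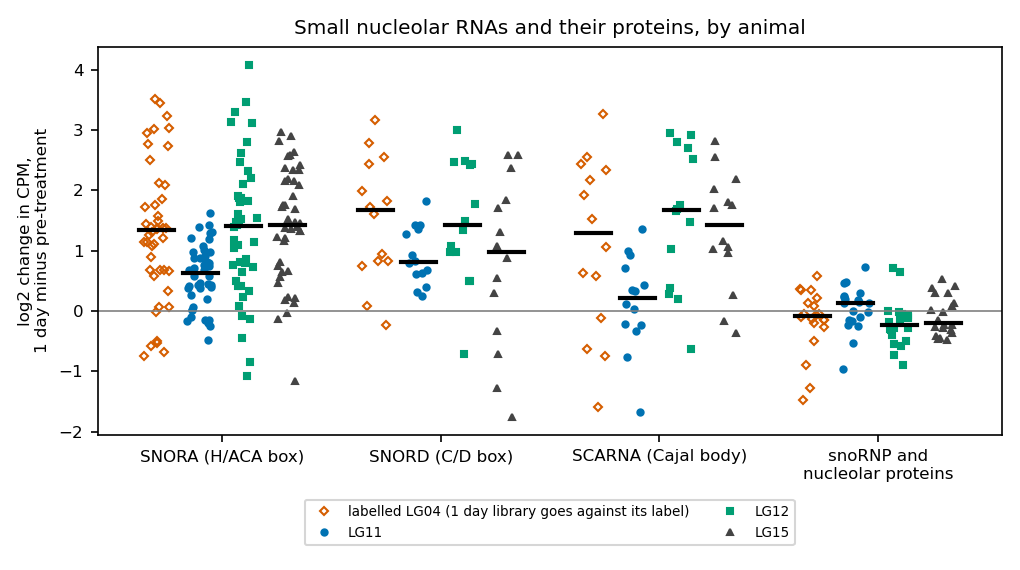
Change of each tested H/ACA box snoRNA (44), C/D box snoRNA (14), scaRNA (14) and gene for a snoRNA-particle or nucleolar protein (20) in each animal, as log2 CPM at 1 day minus log2 CPM before treatment (vertical axis); black bars are medians. The snoRNA medians lie above 0 in each animal and are lowest in LG11 (0.63, 0.82 and 0.22), while those of the proteins lie between -0.23 and 0.14. The snoRNAs and scaRNAs drawn include 16 that passed the filter only with the 1 day libraries.

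The 3 protein-coding genes that rose were IKBIP, TFEC and PLEKHO1. IKBIP, which encodes a protein of the endoplasmic reticulum that binds an NF-kB kinase, went from 10.6, 26.9, 7.0 and 7.77 CPM to 24.3, 55.2, 15.7 and 13.4 CPM in LG04, LG11, LG12 and LG15. The groups overlapped because LG11 started high, but the log2 change lay between 0.76 and 1.17 in the 4 animals (fitted log2 1.05 ± 0.17, SE, edgeR adjusted p = 0.0192). TFEC, a myeloid transcription factor of the MiT family, stood at 5.36, 12, 17.5 and 12.4 CPM before and 25.0, 61.0, 35.4 and 20.1 CPM at 1 day, without overlap. Its rise of log2 1.55 ± 0.27 had an adjusted p of 0.0383, and of 0.0708 without the library labelled LG04 at 1 day. PLEKHO1, a signalling adaptor, went from 48.6, 37.2, 23.7 and 75.1 CPM to 201, 58.7, 51.7 and 184 CPM (log2 1.26 ± 0.23, adjusted p = 0.0493, and 0.101 without that library). It was highest at 1 day in the 2 libraries that were also richest in platelet genes. With a platelet score as a covariate its change was 0.85, and NR4A2 (-2.13, adjusted p = 0.0306) was the 1 gene called.

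Platelet genes had the highest median of the 61 lists. All 17 tested had a fitted change above 0 (median log2 2.62, or 2.35 without the library labelled LG04 at 1 day) and an unadjusted p under 0.05, but 0 passed over all genes in edgeR and 8 in DESeq2. Over all genes tested, 8.47% were higher at such a p and DESeq2 called 2.51% higher. The 18 platelet and megakaryocyte genes summed to 457.7, 149.6, 143.4 and 10520 CPM before and to 34680, 875.1, 1076 and 28740 CPM at 1 day in LG04, LG11, LG12 and LG15. The sum was higher at 1 day in 4 of 4 animals, but the groups overlapped because LG15 was rich in platelet genes from the start. The platelet chemokine gene PF4 went from 5.52 to 26.4 CPM in LG11, from 4.86 to 51.7 CPM in LG12 and from 543 to 1992 CPM in LG15, and in the pair labelled LG04 from 28.3 to 2153 CPM. That pair gave a median of 5.59 over the 17 genes, against 1.90 in LG11, 2.37 in LG12 and 1.61 in LG15. The part of platelet RNA in the 26 calls was not tested beyond the fit with the score.

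Monocyte genes differed between animals. Of 18 classical monocyte genes tested, 16 lay above 0 (median log2 0.79, and 1.24 without the library labelled LG04 at 1 day). In edgeR 0 passed (7 at an unadjusted p under 0.05, against 13.6% of all genes tested), and in DESeq2 4 (against 3.46%). The median was 1.46 in LG11 and 1.81 in LG12, but -0.18 in LG15 and -0.13 in the pair labelled LG04. CD163, a scavenger receptor for haemoglobin, stood at 52.8, 92.4, 32.1 and 83.4 CPM before and 124, 726, 133 and 136 CPM at 1 day. The groups did not overlap, and LG11 stood far above the other animals at 1 day. The change of log2 1.86 ± 0.59 did not pass (edgeR adjusted p = 0.163). CD14, CCR2 and the myeloid receptor gene EMR1 gave log2 1.83 ± 0.62, 1.22 ± 0.30 and 2.43 ± 0.65, and none of these 3 passed in edgeR. S100A8 and S100A12, also on the list, gave -0.03 and -0.06. The summed level of the 19 monocyte genes was higher at 1 day in 4 of 4 animals, but in the pair labelled LG04 and in LG15 only through THBS1, a thrombospondin gene whose protein platelets also store. THBS1 went from 222, 451, 81.8 and 1358 CPM to 4230, 1129, 338 and 3618 CPM. The sum of the other 18 genes was lower at 1 day in the pair labelled LG04 (3992 to 1454 CPM) and in LG15 (2065 to 1541 CPM), and higher in LG11 (2879 to 9273 CPM) and LG12 (585.6 to 1706 CPM). TFEC was higher in all 4, by log2 2.14, 2.31, 1.00 and 0.68 in LG04, LG11, LG12 and LG15. So were 7 of the 18 monocyte genes tested, CD163, CD14 and CCR2 among them, and 9.83% of all genes tested. Whether TFEC followed the monocyte content was not tested.

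Neutrophil and red-cell genes also differed between animals. The 20 neutrophil genes summed to 5294, 551, 119.3 and 1249 CPM before and to 279.3, 393, 152.7 and 304.2 CPM at 1 day. The sum was lower in LG11, LG15 and the pair labelled LG04, and higher in LG12. The median over 17 tested genes was -1.78, and -1.11 without the library labelled LG04 at 1 day. There were 0 calls in edgeR (9 at an unadjusted p under 0.05, against 13.6% of all genes tested) and 2 in DESeq2 (against 3.46%). For 15 erythroid genes other than globins the median moved from 1.12 to 1.74 without that library, with 0 calls in edgeR and DESeq2 and 0 at an unadjusted p under 0.05. Their summed level was 14730 CPM before and 8275 CPM at 1 day in the pair labelled LG04, but 3108 and 14100 CPM in LG15. The globin median lay below 0 in the pair labelled LG04 (-1.29) and in LG11 (-0.85) and above 0 in LG12 (2.29) and LG15 (2.41).

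**Figure D4:**
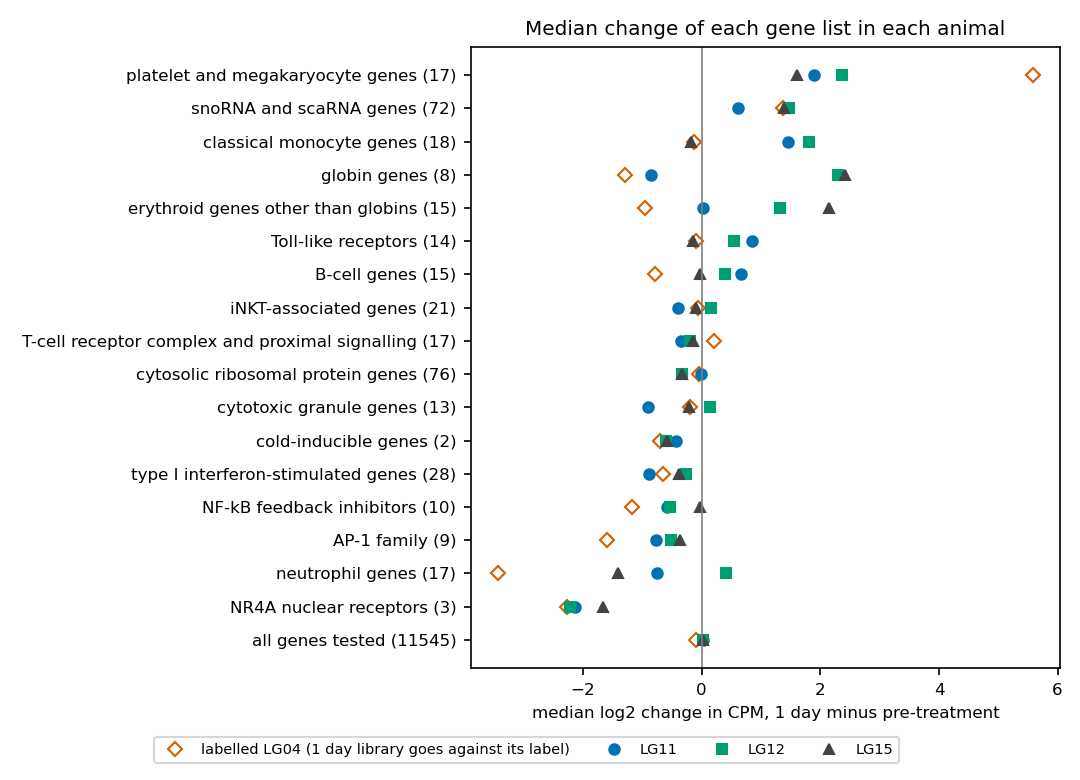
Median change of 17 gene lists and of all genes tested in each animal (log2 CPM at 1 day minus log2 CPM before treatment; number of genes tested in parentheses); open diamonds are the pair labelled LG04. The NR4A medians lie between -2.27 and -1.67 and the platelet medians between 1.61 and 5.59, while the red-cell and monocyte medians differ in sign between animals.

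The list of genes associated with the cells that NKTT320 binds held no call. Of 21 iNKT-associated genes tested, 0 passed in edgeR or DESeq2 (3 at an unadjusted p under 0.05, against 13.6% of all genes tested). The median was log2 -0.09 (-0.17 without the library labelled LG04 at 1 day). ZBTB16, whose product PLZF directs iNKT development, stood at 31.3, 5.05, 1.94 and 5.55 CPM before and at 15.8, 2.03, 5.22 and 17.8 CPM at 1 day in LG04, LG11, LG12 and LG15. It was lower in LG11 and the pair labelled LG04 and higher in LG12 and LG15. The interferon gamma gene IFNG stood at 2.68, 8.10, 5.25 and 9.80 CPM before and 1.97, 3.95, 4.06 and 3.16 CPM at 1 day. Each animal was lower at 1 day, but the groups overlapped and the change did not pass (log2 -0.97 ± 0.42, edgeR adjusted p = 0.325). CD69, an early activation marker of lymphocytes, was at 229, 197 and 319 CPM before and 78.8, 66.8 and 155 CPM at 1 day in LG11, LG12 and LG15. In the pair labelled LG04 it was at 159 and 165 CPM, and its fitted change went from -0.91 to -1.35 without that 1 day library (adjusted p = 0.171). Cytotoxic granule genes lay below 0 for 12 of 13 (median -0.30), T-cell receptor genes for 12 of 17 (-0.12), and B-cell genes above 0 for 10 of 15 (0.05). Each of these 3 lists had 0 calls in edgeR, with 4, 2 and 0 genes at an unadjusted p under 0.05, against 13.6% of all genes tested.

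Of the ribosomal protein, cold-inducible and heat-shock genes, 0 passed in edgeR (5, 2 and 6 at an unadjusted p under 0.05), and DESeq2 called 0, 2 and 1. Over all genes tested, 13.6% had such a p and DESeq2 called 3.46%. Cytosolic ribosomal protein genes lay below 0 for 68 of 76 (median log2 -0.18). For 7 of the 76 the groups did not overlap and were lower, against 2.07% of all genes tested. Among the 7 were RPS29 (-0.47 ± 0.17) and RPS16 (-0.41 ± 0.18). Both cold-inducible RNA-binding protein genes were lower in 4 of 4 animals without passing: CIRBP stood at 208, 183, 237 and 165 CPM before and 119.6, 116, 153 and 142 CPM at 1 day (log2 -0.59 ± 0.13, edgeR adjusted p = 0.0889), and RBM3 gave -0.56 ± 0.14. Heat-shock and chaperone genes lay above 0 for 14 of 17 (median 0.28), and the mitochondrial chaperonin gene HSPD1 went from 28.0, 30.4, 39.8 and 37.0 CPM to 49.3, 45.9, 46.4 and 52.5 CPM without overlap (log2 0.54 ± 0.14, adjusted p = 0.1). CXCR4, the receptor that holds leukocytes in bone marrow, stood at 509, 438, 602 and 545 CPM before and 307, 293, 299 and 291 CPM at 1 day. The values at 1 day were almost equal in the 4 animals, and the change of -0.81 ± 0.17 missed the threshold (adjusted p = 0.0755).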

How the data were processed

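The deposited count tables of each animal and time hold whole-number counts per gene, not normalized by the authors. Per the submitters' processing notes, FastQC, Trimmomatic, STAR, HTSeq, DESeq and edgeR were used with the human builds GRCh37 and hg19; the notes name no version or strand setting, so overlapping genes and near-identical copies are uncertain. Counts of 24369 entries were summed to 23602 symbols, of which 17991 had a count in the 8 libraries. A count of 3 made 0.403 to 2.12 CPM in these libraries before TMM scaling, counting error only.

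Genes that passed filterByExpr were tested in edgeR 4.0.16 (R 4.3.3) on 16 libraries with TMM scaling and terms for animal and time, which leaves 9 residual degrees of freedom (3 with the 8 libraries alone). SE is the log2 fold change divided by the root of F. Changes per animal use a prior count of 2. In simulated data of 11545 genes, 41 of 100 genes changed by log2 1 and 94 of 100 changed by log2 2 were recovered, with 5 false calls. The changed genes were drawn from those with an average log2 CPM above 2, so the recovery does not cover genes of lower level. No simulated library went against its animal label. Whether samples of an animal share more than their source was checked by correlating deviations from time means (0.06, 0.62, 0.67 and 0.40 for LG04, LG11, LG12 and LG15). The pairing rests on the design, as each animal was bled at both times. Each animal gave 1 library a time. The animal term takes up differences in level between animals. The p-values therefore measure how far animals differ in their changes over time, pooled over all 16 libraries and not over the 1 day change alone.

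Named were the called genes, up to 4 genes a list by p (all of lists of 5 or fewer), the 10 largest rises and falls without overlap at a mean of at least 5 CPM, a marker panel and genes that tell LG04 from LG15; BTG3, JUNB, PLK3, MX1, IFIT1, CMPK2, DKC1, GAS5, S100A8, S100A12, CHST1, SHC2, UMODL1, PPP1R9A and the hosts RPL23 and NAP1L4 were added after their values were seen, as were the snoRNA classes, the split of the snoRNAs by filter entry, the monocyte sum without THBS1 and the zinc-finger families. The members and lists were chosen with earlier results of these data known. Alternatives were no animal term, the 8 libraries alone, DESeq2 1.42.0, other scaling, no filter, left-out animals or libraries and a platelet covariate. Single values of a few genes, 1 of the 26 called genes among them, are not reported here; the counts and medians include them. The deposited FPKM tables and series-wide tables were not used here.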

Additional observations from a re-analysis of the deposited data

Results flagged for a closer look

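In a group of 4 samples, a value was singled out where its gap to the nearest other, divided by the range on the log2 scale, exceeded Dixon's 95% critical value of 0.829. Of 76 groups, covering the 26 called genes and 12 marker lists at each time, 9 held such a value, where chance gives about 1 in 20. LG12 stood apart in 5 of the 9. Its FOS level before treatment was 665.1 CPM against 963.6 to 1033 CPM in the other animals. At 1 day its TNFAIP3 was at 108 CPM against 166.6 to 175.4 CPM and its MYLIP at 103.9 CPM against 69.1 to 73.6 CPM. Its classical monocyte genes summed to 667.4 CPM before treatment, below 3329 to 4214 CPM elsewhere, and its dendritic-cell genes to 564.8 CPM at 1 day, above 403.4 to 415.3 CPM.

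LG11 stood apart in 3, all at 1 day. DUSP1 was at 584.7 CPM against 114.3 to 143.4 CPM, and SNORA21 at 3.83 CPM against 37.1 to 58.0 CPM. Its non-classical monocyte genes summed to 1752 CPM against 543.3 to 548.8 CPM, but they had summed to 1703 CPM before treatment. In LG15, NR4A2 was at 128 CPM before treatment against 172.2 to 182.7 CPM.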

How the results depend on the processing

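The 26 called genes kept their direction under all 14 alternatives. The count of 26 (6 higher, 20 lower) stayed within 1.5 times with RLE size factors (24), without globin genes (25), without the 1 day library of LG04 (18, of which 13 lower) and without the 2 hour library of LG04 (35, of which 12 higher), a fit added after seeing the data. It was 3 (0 higher, 3 lower) without the replicate block for animal, 1 (0 higher, 1 lower) with only the 8 libraries, 400 (290 higher, 110 lower) in DESeq2, and 70 (34 higher, 36 lower) with no filter on low counts. It was 1 (0 higher, 1 lower) with the platelet score as a covariate. Without the 4 shallowest libraries it was 0 in edgeR (0 higher, 0 lower), with 1103 genes at an unadjusted p under 0.05. That fit drops the 1 day libraries of LG12 and LG04 and keeps those of LG11 and LG15. Leaving out each animal in turn gave 1 to 67 calls, 0 to 47 of them higher and 1 to 20 lower. The count was 1 without LG04, 2 without LG11, 1 without LG12 and 67 without LG15, of which 15 were among the 26. The cause was not tested. NR4A2 was called under 13 of the 14 and gave log2 -2.39 (adjusted p = 0.0667) without the 4 shallowest libraries. FOS, NR4A3 and TNFAIP3 were called under 8.

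Of 61 list medians, 54 kept their sign without the 1 day library of LG04 and 47 with the platelet score. With 4 animals and 1 day libraries of down to 1417467 counts, genes of low level were outside the test: 72 of 392 snoRNA and scaRNA genes entered it.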

Other observations

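Without the library labelled LG04 at 1 day, 2 genes passed that did not pass with it. CHST1, a sulfotransferase gene, gave log2 2.72 ± 0.42 (SE, edgeR adjusted p = 0.0435) and 1.54 (adjusted p = 0.396) with that library. It stood at 35.5, 0.117, 0.389 and 4.26 CPM before treatment and 20.4, 0.359, 0.58 and 29.6 CPM at 1 day in LG04, LG11, LG12 and LG15, so LG15 alone had a level well above its start. SHC2, an adaptor gene, gave 3.94 ± 0.66 (adjusted p = 0.0445) and was below the filter on low counts in the fit with all libraries.

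Among the uncalled genes at a mean of at least 5 CPM, NRG1, a growth factor of the EGF family, and CISH, an inhibitor of cytokine signalling, did not overlap between times. NRG1 stood at 1.34, 2.11, 1.75 and 2.22 CPM before and 7.23, 13.6, 5.80 and 6.72 CPM at 1 day, and CISH at 7.54, 9.39, 7.58 and 9.80 CPM before and 25.6, 10.2, 11.6 and 20.9 CPM at 1 day (edgeR adjusted p = 0.0917 and 0.172). Genes tested with an absolute log2 change above 1 numbered 762, of which 614 were higher and 148 lower, the opposite balance to that of the calls.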
